A study of Homo sapiens with 8 samples.

Results

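The replication-dependent histone genes were taken as all promoter windows named for a protein-coding gene with a symbol of the H1-, H2AC, H2BC, H3C or H4C series on chromosomes 1 and 6 (within the former HIST1, HIST2 and HIST3 clusters). This gave 63 of the 19957 windows in the deposited promoter table: 6 of linker histone H1, 16 of H2A, 16 of H2B, 12 of H3 and 13 of H4. The rule used symbols and chromosomes and no measured value, but it was set with earlier results of these data known. RefSeq lists 68 such genes, and no window could be named for the other 5 (H2BC6, H2AC7, H4C9, H2BC15 and H3C12). A window is 2001 bp long and centred on an annotated gene start, in hg38 coordinates.

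The libraries hold genomic DNA of RPE1, an established human cell line of retinal pigment epithelial origin, and were made by OGAP-seq, which the study used to follow oxidative DNA damage across the genome. WT cells (genotype wild type) had no doxycycline. KD cells are the post-doxycycline cells, in which NuMA, a nuclear and spindle-pole protein also called TDIF, was depleted. Doxycycline and depletion therefore came together and cannot be told apart. Each state has 2 OGAP libraries, made after the pull-down, and 2 input libraries, which were not pulled down. DNA carries no expression marker with which to check the cell line, and the promoter counts do not measure the depletion. Whether the 2 libraries of a group are separate cultures is not stated, so each p-value reflects only how these libraries vary, which could be technical variation.

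Replication-dependent histone genes supply the bulk of the histones that package newly copied DNA, and they are transcribed mainly in S phase. H3 and H4 form the core of the nucleosome, H2A-H2B dimers complete it, and H1 binds the linker DNA between nucleosomes. Most of the genes lack introns, lie close together, and give messengers that end in a stem-loop instead of a poly(A) tail. Many H2A and H2B genes are divergent pairs that start from opposite strands of 1 short shared promoter. Guanine is the base most easily oxidised, so the base composition of a promoter is given below beside its reads.

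The promoters of the families differ in sequence in ways that the choice of genes did not use. RefSeq (GRCh38.p14) gave the 250 bases before the gene start for 59 of the 63 windows, all but H4C1, H4C3, H2AC12 and H3C11. Letters were searched on both strands. The H1 element AAACACA occurred in 6 of 6 H1 promoters and in none of the other 53, against 3.66% of 12257 promoters of named windows. The octamer ATTTGCAT, the binding motif of Oct-1, occurred in 10 of 15 H2A and 13 of 16 H2B promoters and in no other member, against 1.57% of all. CCAAT, the NF-Y motif, occurred in every H1, H2A, H2B and H3 promoter but in only 2 of 11 of H4, against 35.2% of all. TATAAA occurred in 69.5% of the members against 9.21%. A run of 4 guanines on either strand (GGGG) occurred in 61.0% of the members against 92.7%. A match is a description of these letters and not a binding site.

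The promoters below are those of windows on which the results turn, each as 250 bases before the start, 5′ to 3′ on the strand of the gene. H1-4 had the lowest value of the H1 family in WT, and the capitals mark AAACACA and CCAAT. H2AC8 and H2BC26 were the members called higher in WT; the capitals mark the octamer and CCAAT in H2AC8 and CCAAT in H2BC26, on either strand. They lie at chr6:26156079-26156328, chr6:26216671-26216920 and chr1:228457853-228458102, all on the plus strand. The printed bases of H2AC8 and H2BC26 lie wholly in the stretch shared with the window of the divergent partner, H2BC8 and H2AC25. H2AC17 and H2AC20, with 0 bp of their own, held 0 reads, so reads in shared stretches may not have been counted. The reads of H2AC8 and H2BC26 then need not come from the bases printed.
H1-4: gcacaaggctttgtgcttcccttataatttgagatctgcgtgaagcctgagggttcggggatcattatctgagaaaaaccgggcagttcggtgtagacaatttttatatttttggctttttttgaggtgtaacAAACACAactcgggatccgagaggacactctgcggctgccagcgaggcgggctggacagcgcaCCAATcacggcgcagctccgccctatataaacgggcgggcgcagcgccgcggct
H2AC8: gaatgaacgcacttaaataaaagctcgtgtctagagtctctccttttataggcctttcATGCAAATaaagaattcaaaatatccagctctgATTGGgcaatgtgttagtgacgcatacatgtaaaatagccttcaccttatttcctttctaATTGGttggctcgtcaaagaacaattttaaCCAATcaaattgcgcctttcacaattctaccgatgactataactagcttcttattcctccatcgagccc
H2BC26: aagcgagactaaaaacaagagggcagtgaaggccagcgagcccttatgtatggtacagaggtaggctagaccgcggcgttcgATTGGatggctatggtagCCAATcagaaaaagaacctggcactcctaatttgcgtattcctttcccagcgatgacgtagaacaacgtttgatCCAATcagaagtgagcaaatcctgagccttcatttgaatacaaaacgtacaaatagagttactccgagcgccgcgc

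Several members are near-copies of each other, which bears on whether a read can be given to 1 gene. The H4C11 (chr6:27823842-27824091, plus strand) and H4C12 (chr6:27831561-27831810, minus strand) promoters were identical at 98.0% of positions; the capitals mark the 5 bases that differ. The promoter of H4C14 (chr1:149832407-149832656, plus strand) was identical to that of H4C15 over all 250 bases, and the capitals in it mark GGGG on either strand.
H4C11: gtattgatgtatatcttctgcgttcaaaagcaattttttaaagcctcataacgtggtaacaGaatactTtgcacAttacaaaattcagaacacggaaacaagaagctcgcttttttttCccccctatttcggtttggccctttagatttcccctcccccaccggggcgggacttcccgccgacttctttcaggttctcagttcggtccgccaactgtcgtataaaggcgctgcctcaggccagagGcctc
H4C12: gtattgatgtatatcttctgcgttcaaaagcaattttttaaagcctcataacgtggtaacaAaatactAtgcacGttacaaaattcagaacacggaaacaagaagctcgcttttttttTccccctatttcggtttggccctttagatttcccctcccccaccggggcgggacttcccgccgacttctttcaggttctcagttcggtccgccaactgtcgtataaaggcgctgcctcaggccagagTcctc
H4C14: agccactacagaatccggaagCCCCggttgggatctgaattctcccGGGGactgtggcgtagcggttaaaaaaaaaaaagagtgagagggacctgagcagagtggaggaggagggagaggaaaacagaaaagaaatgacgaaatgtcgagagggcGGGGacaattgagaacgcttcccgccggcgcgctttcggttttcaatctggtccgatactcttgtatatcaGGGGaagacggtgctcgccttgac

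H2AC18 and H2AC19 shared an unbroken run of 249 of 250 bases and H3C14 and H3C15 one of 246. These 3 near-identical pairs all lie in the HIST2 block of chromosome 1. Outside them and H4C11 and H4C12, the longest shared run was 93 bases, in H2AC13 with H2AC14 and in H2BC13 with H2BC14. The median identity of the 350 pairs within families, compared position by position without gaps, was 28.4%.

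How many reads a histone window held followed how much of it was free of other windows. Of the 63 windows, 45 (71.4%) overlapped another window, against 18.8% of all windows. The median length shared with no other window was 1308 bp, against the full 2001 bp over all windows. H2A and H2B windows were the shortest in this sense: 22 members had under 400 bp of their own, all of them H2A or H2B. The windows with 1000 bp or more of their own held 39 to 270 reads over the 8 libraries, except 4 that held none, and those with under 400 bp held 0 to 54. Over windows with at least 200 bp of their own, input reads per kb of that length had a median of 55.3 in the members and 80.0 in all windows. How the counter treated a read lying in an overlap, or one that maps to several places, is not given in the sources used here.

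**Figure D1:**
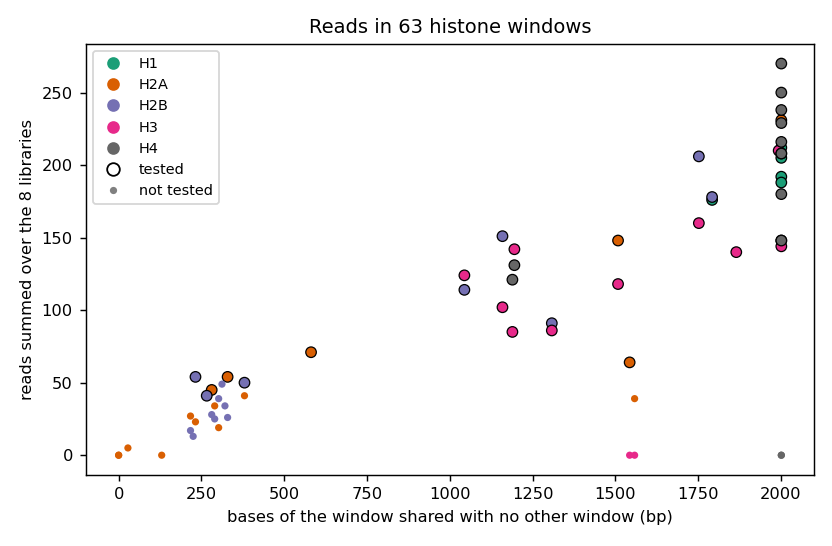
Reads summed over the 8 libraries (vertical axis) against the length of each histone window shared with no other window (horizontal axis, bp), 1 point per window, coloured by family. Ringed points passed the count filter; most windows with under 400 bp of their own fall below 50 reads, and the H3 and H4 points at 0 with 1543 bp or more of their own are H3C14, H3C15, H4C14 and H4C15.

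Among the members, 7 windows held no read in any library. H4C14 and H4C15 overlap no window and H3C14 and H3C15 have 1543 and 1558 bp of their own, so that overlap leaves most of these 4 windows free; all 4 belong to the near-identical pairs. The remaining 3, H2AC13, H2AC17 and H2AC20, had 130 bp, 0 bp and 0 bp of their own. The third near-identical pair was not at 0, with 64 reads in H2AC18 and 39 in H2AC19. A count of 0 in 4603655 promoter reads allows a share of up to 6.52e-05%, for counting error only. Nothing about oxidative damage at these 7 promoters can be read from the table.

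The count filter, about 10 reads in each of at least 2 libraries, kept 41 of the 63 windows: all 6 of H1, 6 of H2A, 8 of H2B, 10 of H3 and 11 of H4. These held 41 to 270 reads in all, and the 22 others 0 to 49. Of the 41, 34 met the minimum in OGAP and input libraries alike, and 1 (H2AC18) through 1 library of each kind. H3C13 met it in input alone. H2AC8, H2AC12, H2BC1, H2BC13 and H2BC26 met it in OGAP alone, and each has under 400 bp of its own. These 5 could be tested only because OGAP was high there, so their positive values below, and any count that includes them, are no evidence that histone promoters are high in OGAP.

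Depth was low for single windows. The libraries held 368593 to 771138 promoter reads, and a tested histone window had a median of 10 and 14 reads in OGAP against 24 and 23 in input for WT, and 17 and 15 in OGAP against 24 and 20 in input for KD, against 19 to 42 over all tested windows. For the first comparison below, simulated counts gave back 26% of 2-fold and 92% of 4-fold changes. The changed windows were drawn only from tested windows at or above the median read level. The median histone window held fewer reads than the median tested window, so recovery at its depth was not measured. Across the 41 members, log2 CPM correlated at 0.78 between the WT inputs and 0.82 between the KD inputs, at 0.56 between the WT OGAP libraries and at 0.32 between the KD OGAP libraries. The first KD OGAP library correlated at 0.60 to 0.76 with the 4 inputs and the second at 0.54 to 0.63. CPM is the reads of a window per 1000000 reads in tested windows, after TMM scaling; the WT OGAP libraries were the shallowest, so raw reads given below compare between groups only in CPM.

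As a whole, the 63 windows took a similar share of the promoter reads in every library. The share was 0.152% and 0.155% in OGAP against 0.148% and 0.123% in input for WT, and 0.141% and 0.164% in OGAP against 0.134% and 0.139% in input for KD. The OGAP libraries lay above the inputs of the same state by a small margin, which the next values separate by family. These sums include the windows that the filter removed, and they carry no test.

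H1 was the family whose reads were sparser in OGAP than in input in WT. Its 6 windows summed to 176 and 188 CPM in OGAP against 289 and 249 in input for WT, and 236 and 246 in OGAP against 254 and 254 in input for KD. H2A summed to 190 and 251 CPM in OGAP against 175 and 121 in input for WT, and to 180 and 224 in KD OGAP against 148 and 175 in KD input. H2B summed to 341 and 373 CPM in OGAP against 240 and 214 in input for WT, and to 223 and 318 in KD OGAP against 187 and 180 in KD input. For these 3 families the WT OGAP and WT input libraries did not overlap, with H1 lower and H2A and H2B higher in OGAP. The same order without overlap held in KD. Such an order is common: in WT, 28.0% of all tested single windows had OGAP below input without overlap and 28.5% above.

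H4 summed to 636 and 544 CPM in OGAP against 461 and 403 in input for WT, and to 418 and 564 in KD OGAP against 475 and 466 in KD input. Its WT libraries did not overlap and its KD libraries did. H3 summed to 247 and 275 CPM in OGAP against 298 and 248 in input for WT, which overlapped, and to 366 and 314 in KD OGAP against 258 and 286 in KD input. The order of these groups was the same with shares of unscaled promoter reads.

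**Figure D2:**
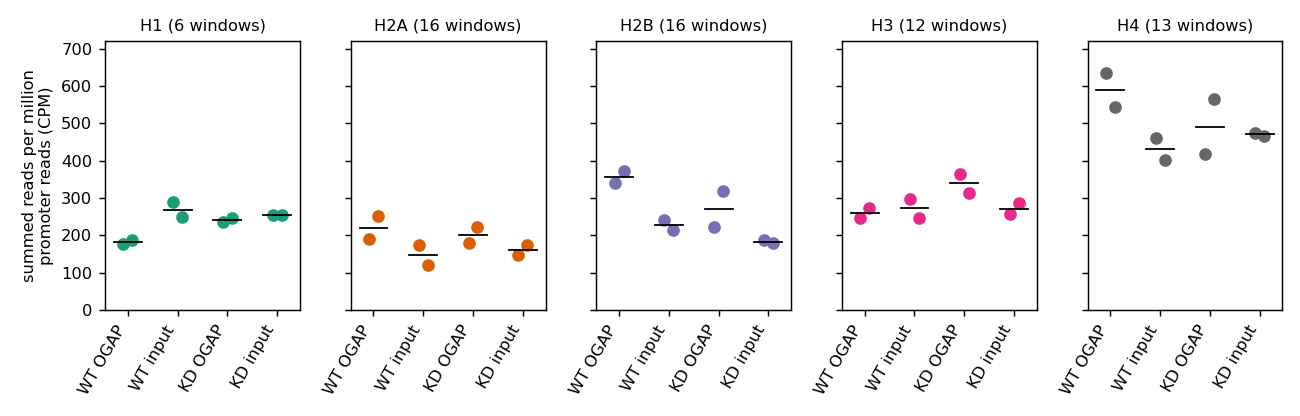
Summed CPM of all windows of each histone family (vertical axis) in each library, 1 point per library, by group (horizontal axis), with a line at the mean of 2 libraries. H1 lies at 176 and 188 CPM in WT OGAP, below its inputs at 289 and 249, whereas H2B and H4 lie above their inputs in WT.

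The first comparison, OGAP over input in WT, asks which promoters are over- or under-represented in the pull-down of unperturbed cells. A window was called where the adjusted p (edgeR's quasi-likelihood test, Benjamini-Hochberg over all 17130 tested windows) was under 0.05. H2BC26 and H2AC8 were called higher in OGAP and H4C1 lower. That is 3 of 41 tested histone windows (7.32%), against 13.7% of all tested windows; 9.25% of all were called higher and 4.45% lower. The members were thus called no more often than promoters in general. The median log2 change was 0.35 over the 41 members and -0.02 over all tested windows. It was 0.25 over the 34 members that met the minimum in OGAP and input alike, and likewise 0.25 over all 36 other than those let through by OGAP, of which 1 was called. With no filter it was 0.26 over the 56 members with any read. Without the second WT OGAP library it was 0.013 over the tested members.

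H2BC26 (ENSG00000196890, chr1:228457106-228459106, plus strand), an H2B gene of the HIST3 block, held 15 and 11 reads in OGAP against 2 and 4 in input for WT, and 9 and 8 in OGAP against 1 and 4 in input for KD. The OGAP libraries lay above the inputs in WT and in KD without overlap. Its log2 change in WT was 3.10 ± 0.83 (SE; adjusted p = 0.00593, edgeR), and in KD 2.14 ± 0.92, which was not called (adjusted p = 0.293, edgeR). Of its window, 232 bp are free of the window of its divergent partner H2AC25, which held 0 and 9 reads in OGAP against 1 and 1 in input for WT. With overlapping windows summed, this pair had a log2 change of 3.12 in WT (adjusted p = 0.000634, edgeR). Input reads of the pair stayed below the count minimum in every library. The pair too was tested only because OGAP was high, so its value is no separate evidence. H2BC26 was no longer called without the first WT OGAP library (2.80, adjusted p = 0.0818) or the first WT input library (2.72, adjusted p = 0.0752).

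H2AC8 (ENSG00000277075, chr6:26215974-26217974, plus strand), an H2A gene of the first chromosome 6 block, held 13 and 9 reads in OGAP against 5 and 2 in input for WT. In KD it held 5 and 5 in OGAP and 5 and 1 in input. Its log2 change was 2.64 ± 0.87 in WT (adjusted p = 0.0284, edgeR) and 1.15 ± 1.01 in KD (adjusted p = 0.692, edgeR). H2AC8 has 281 bp of its own, and its divergent partner H2BC8 held 1 and 3 reads in OGAP against 6 and 4 in input for WT, which overlapped in CPM. Summed, the pair had a log2 change of 1.64 (adjusted p = 0.077, edgeR), which was not called. The H2AC8 call was also lost with DESeq2 (adjusted p = 0.0938) and without any 1 of the 4 WT libraries (adjusted p = 0.0633 to 0.243).

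H4C1 (ENSG00000278637, chr6:26020678-26022678, plus strand) is the one member called lower. It held 4 and 2 reads in OGAP against 21 and 30 in input for WT, or 11.4 and 5.28 CPM against 28.5 and 38.9. In KD it held 12 and 10 reads in OGAP and 24 and 18 in input. OGAP lay below input without overlap in both states. The log2 change was -2.01 ± 0.68 in WT (adjusted p = 0.0333, edgeR) and -0.49 ± 0.54 in KD (adjusted p = 0.765, edgeR). H4C1 met the filter in OGAP and in input. Its call was lost with DESeq2 (adjusted p = 0.132) and without either WT OGAP library (-2.64 without the first and -1.55 without the second) or without the second WT input library (-1.77). Its window has 1189 bp free of that of H3C1, which held 6 and 4 reads in OGAP against 11 and 16 in input for WT and overlapped in CPM; the summed pair had a log2 change of -1.22 (adjusted p = 0.0723, edgeR).

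**Figure D3:**
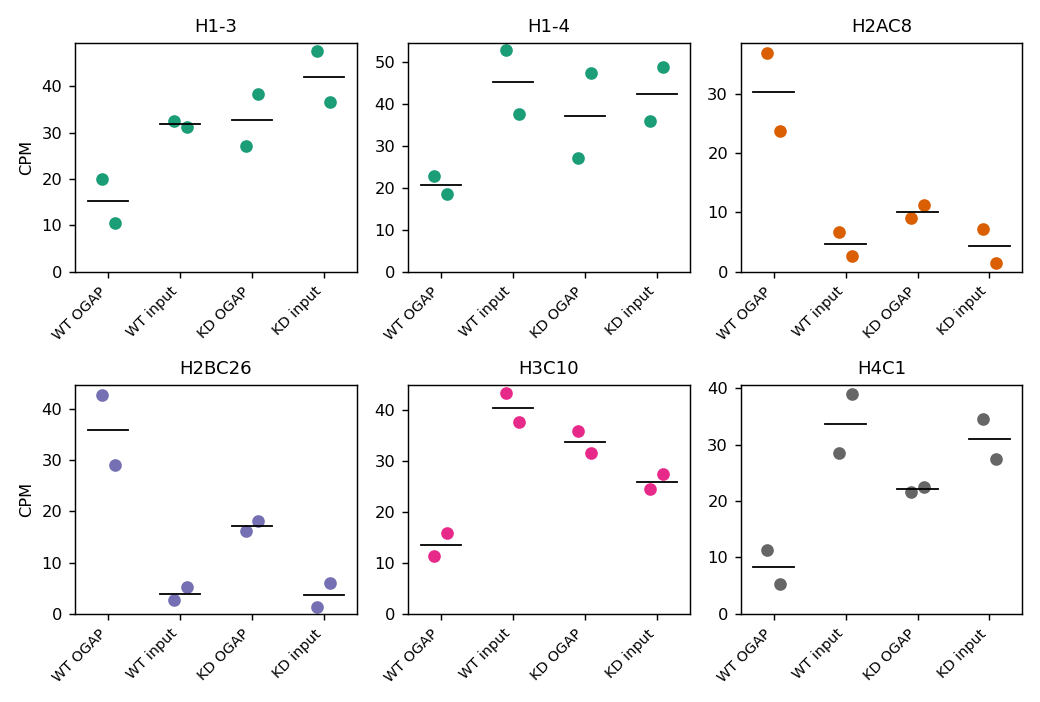
CPM (vertical axis, each from 0) of 6 histone windows in each library by group, 1 point per library with a line at the mean of 2. H2AC8 and H2BC26 are high in WT OGAP, whereas H1-3, H1-4, H3C10 and H4C1 are low there and higher in KD OGAP.

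All 6 H1 windows had a negative log2 change in WT, and none was called. The median was -0.54, and the order of sign was the same under each of the 3 other scalings. In 4 of the 6 (H1-2, H1-3, H1-4 and H1-5) both OGAP libraries lay below both inputs; that held for 9 of 41 members (22.0%) and 28.0% of all tested windows. The opposite order held for 15 members (36.6%) and 28.5% of all, but 4 of these 15 had met the filter through OGAP alone. Among the 34 members that met it in OGAP and input alike, OGAP lay below in 8 and above in 11. H1-4, which encodes linker histone H1.4, stood at 22.7 and 18.5 CPM in OGAP against 52.9 and 37.6 in input for WT, a log2 change of -1.13 ± 0.51 (adjusted p = 0.124, edgeR). H1-3 stood at 19.9 and 10.6 CPM against 32.5 and 31.1, a log2 change of -1.07 ± 0.58 (adjusted p = 0.21, edgeR). H1-5, with the most reads of the family, had -0.39 ± 0.41, H1-2 -0.63 ± 0.44 and H1-1 -0.46 ± 0.46. H1-6, the testis-specific H1, was nearest to 0 at -0.07 ± 0.46. All but H1-4 overlap no other window, and H1-4 has 1792 bp of its own.

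H2A and H2B leaned the other way in WT, with 6 of 6 and 7 of 8 positive values and medians of 0.39 and 0.84, but 5 of these 14 had met the filter through OGAP alone. Without those 5 the median was 0.32 over 4 H2A and 0.31 over 5 H2B windows. Among the windows that met it in both, H2AC16, the most read H2A window and free of overlap, stood at 71.0 and 50.2 CPM in OGAP against 57.0 and 33.7 in input for WT (0.42 ± 0.39). H2AC4 had a log2 change of 0.27 ± 0.51 and H2AC15 of 0.23 ± 0.67. H2BC10 stood at 85.2 and 37.0 CPM against 28.5 and 29.8 (1.05 ± 0.48, adjusted p = 0.125, edgeR). H2BC3, the most read of H2B, had 0.31 ± 0.42, and H2BC9 stood at 0.005 ± 0.54. H2BC18 had the one negative value, -0.29 ± 0.63; with upper quartile scaling or total reads alone, 6 of 8 were positive. Of the windows let through by OGAP, H2AC12 had 2.07 ± 0.84, H2BC1 1.69 ± 0.87 and H2BC13 1.15 ± 0.95, none of them called.

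H3 held values on both sides, 4 positive and 6 negative, with a median of -0.17. H3C10 stood at 11.4 and 15.9 CPM in OGAP against 43.4 and 37.6 in input for WT. The groups lay far apart, and the log2 change was -1.55 ± 0.58 (adjusted p = 0.0566, edgeR), just outside the threshold; with upper quartile scaling (-1.61) or total reads alone (-1.63) it was called. H3C13 had -1.38 ± 0.75, having met the filter in input alone. H3C2 stood at 25.6 and 47.6 CPM against 21.7 and 10.4 (1.19 ± 0.56, adjusted p = 0.143, edgeR). H3C4, the most read, had -0.35 ± 0.44, and H3C6, the one tested H3 window free of overlap, 0.86 ± 0.50.

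H4 had 8 positive and 3 negative values in WT, with a median of 0.69, and 9 of its 11 tested windows overlap no other. In 7 of the 11 both OGAP libraries lay above both inputs, an order found in 28.5% of all tested windows. H4C6, the most read histone window of all, stood at 111 and 71.3 CPM in OGAP against 65.1 and 37.6 in input for WT (0.82 ± 0.36, adjusted p = 0.111, edgeR). H4C3 stood at 76.7 and 74.0 CPM against 35.3 and 45.4 (0.90 ± 0.39, adjusted p = 0.11, edgeR). H4C13 had 1.12 ± 0.50, H4C12 0.84 ± 0.52, H4C7 0.73 ± 0.40, H4C5 0.69 ± 0.37, H4C11 0.58 ± 0.44 and H4C4 0.57 ± 0.38. H4C2 at -0.48 ± 0.42 and H4C8 at -0.38 ± 0.42 stood with H4C1 below 0. None but H4C1 was called.

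**Figure D4:**
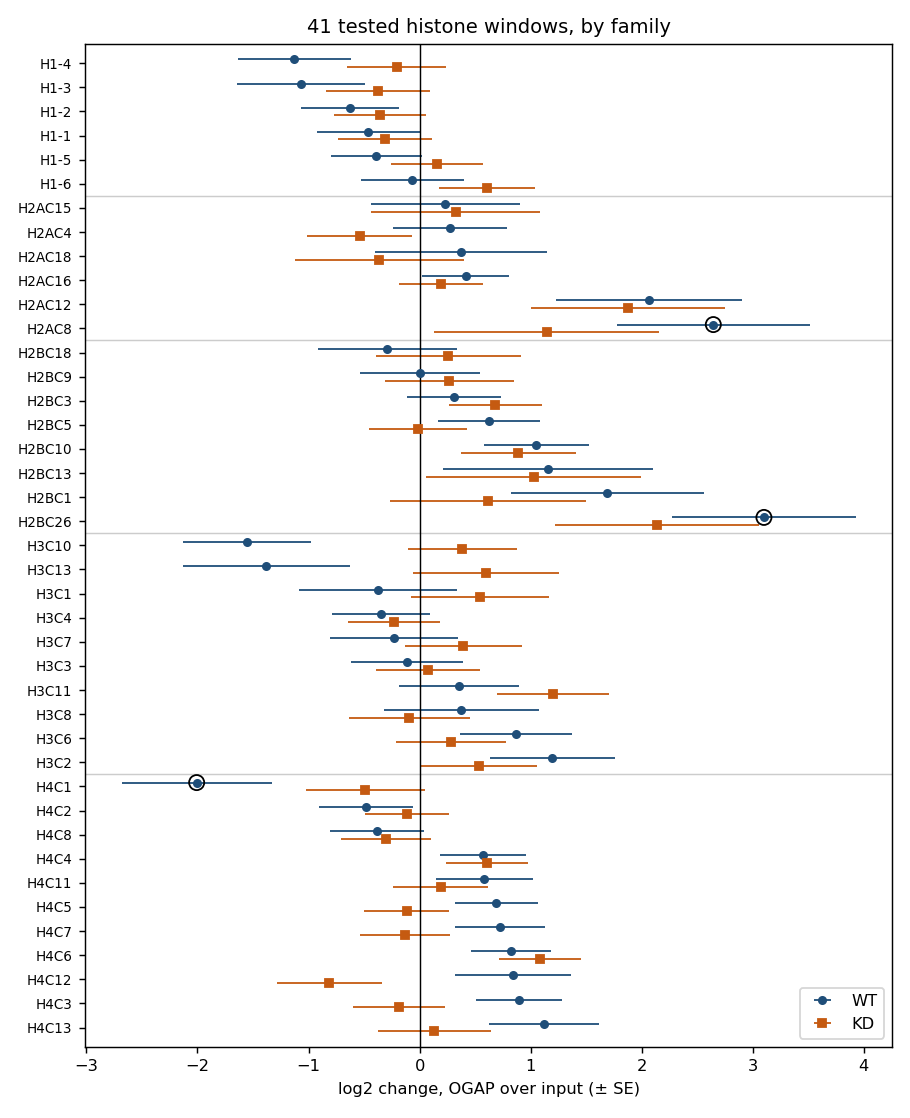
Log2 change of OGAP over input ± SE (horizontal axis) for the 41 tested histone windows, grouped by family and ordered by the WT value, in WT (circles) and KD (squares); a black ring marks an adjusted p under 0.05. The 3 ringed values are WT values, and all 6 H1 circles lie below 0.

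Base composition moved with OGAP over input across all promoters, and histone promoters are poor in GC. The 59 histone promoters had a median of 44.0% GC, against 62.8% over 12257. By family the median was 50.8% in H1, 47.6% in H4, 42.4% in H2A, 40.8% in H2B and 40.4% in H3. Over 10571 tested windows, GC and the log2 change in WT correlated at a Spearman rho of -0.376 (Pearson -0.346), a description across windows that share libraries. Promoters with 40 to 50% GC had a median log2 change of 0.27 in WT, and those with under 40% of 0.32. The histone promoters in these same ranges had medians of 0.57 (21 windows) and 0.31 (11 windows), and of 0.32 (18 windows) and 0.16 (10 windows) without those let through by OGAP. Such windows were not taken out of the medians over all promoters. With 50 to 60% GC the median was 0.10 over all and -0.50 over 4 histone promoters, and with 60 to 70% it was -0.13 over all and -0.46 in the 1 histone promoter. Within the 37 tested members with a promoter sequence, rho was -0.067 in WT. For OGAP over input in KD it was -0.373 within these members and -0.287 over the 10571 windows. The part of base composition in the members' median was not tested beyond these values.

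The second comparison, OGAP over input in KD, called none of the 41 histone windows with edgeR, against 0.736% of all tested windows. DESeq2 called none either. At an unadjusted p under 0.05 there were 4 (9.76%, against 12.6% of all tested windows): H4C6, H3C11, H2BC26 and H2AC12. The median was 0.19 over the members and 0.03 over all tested windows. It was 0.14 without the 5 members let through by OGAP and -0.12 over the 16 tested members that overlap no window. H4C6 stood at 57.7 and 102 CPM in KD OGAP, above the KD inputs at 41.8 and 32.0 without overlap (1.08 ± 0.37, adjusted p = 0.15, edgeR). H3C11 stood at 19.8 and 85.8 CPM in KD OGAP against 28.8 and 15.2 (1.20 ± 0.50); the groups overlapped, and the second KD OGAP library was far above the rest. H2AC12 had 1.88 ± 0.87.

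In KD the H1 median was -0.26 with 2 of 6 values positive, led by H1-6 at 0.61 ± 0.43; the lowest, H1-3, had -0.38 ± 0.47. H2A had a median of 0.26, between H2AC12 and H2AC4 (-0.54 ± 0.47). H2B had 0.65, with H2BC5 lowest at -0.01 ± 0.44. H3 had 0.39 and 8 of 10 positive values, with H3C4 lowest at -0.23 ± 0.42. H4 had -0.12, with H4C12 lowest at -0.81 ± 0.47. Whether the states differ is tested by the interaction, given below.

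KD against WT in OGAP called none of the members with edgeR or DESeq2, against 0.035% of all tested windows; 2 (4.88%) had an unadjusted p under 0.05 with edgeR, against 10.6% of all. H4C3 stood at 76.7 and 74.0 CPM in WT OGAP and 30.6 and 42.9 in KD OGAP, without overlap (-1.05 ± 0.42, adjusted p = 0.368, edgeR). H3C10 stood at 11.4 and 15.9 CPM in WT OGAP and 36.0 and 31.6 in KD OGAP, again without overlap (1.30 ± 0.61, adjusted p = 0.425, edgeR). H4C1 had 1.40 ± 0.74, H1-3 1.09 ± 0.60, H2BC26 -1.05 ± 0.71 and H2AC8 -1.57 ± 0.83. These values share the WT OGAP libraries with the first comparison and are set beside it, not taken as further evidence. The family medians were 0.39 in H1, 0.55 in H3, -0.26 in H4, -0.36 in H2B and -0.41 in H2A, and -0.11 over all members. The 5 members let through by OGAP alone, all H2A or H2B, were all negative here, with a median of -0.79. The H2A and H2B medians lean on them and are no evidence of a family-wide fall in KD. Over the 36 other members the median was -0.02. Without the second WT OGAP library the median over the members was 0.33.

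KD against WT in input called none of the members with edgeR or DESeq2, and none (0.0%) of all tested windows. Of the members, 2 (4.88%, against 4.41% of all) had an unadjusted p under 0.05 with edgeR, H4C12 and H3C8. H4C12 stood at 14.9 and 24.6 CPM in WT input and 46.1 and 50.3 in KD input, without overlap, and its log2 change was 1.27 ± 0.46 (adjusted p = 0.999, edgeR). Its near-copy H4C11, with 5 differing promoter bases, stood at 32.5 and 35.0 CPM in WT input and 37.5 and 36.6 in KD input (0.13 ± 0.42). H3C8 stood at 19.0 and 6.49 CPM against 21.6 and 41.1 (1.29 ± 0.58, adjusted p = 0.999, edgeR). The lowest were H2AC15 and H3C13, both at -0.83. The median was -0.04 over the members and -0.01 over all tested windows.

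**Figure D5:**
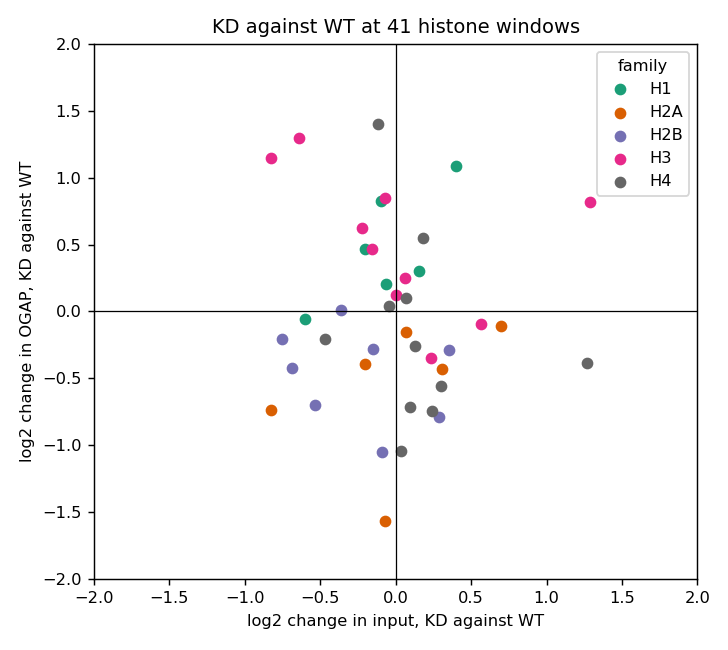
Log2 change of KD against WT in OGAP (vertical axis) and in input (horizontal axis) for the 41 tested histone windows, 1 point per window, coloured by family. All 6 H2A points lie below 0 on the vertical axis and 5 of 6 H1 points above it, and no point was called on either axis. H2AC8 and H2AC12, among the H2A points, met the count filter in OGAP alone.

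The KD effect on OGAP over input, the interaction of both factors, tests the difference between the states. It called none of the 41 members with edgeR or DESeq2, against 0.00584% of all tested windows. In simulated counts, with changed windows again drawn from those at or above the median read level, the interaction recovered 4% of 2-fold and 56% of 4-fold changes. At an unadjusted p under 0.05 there were 2 members (4.88%, against 8.14% of all). H3C10 had 1.94 ± 0.76 (adjusted p = 0.502, edgeR): OGAP lay below input in WT and above it in KD, without overlap in either state. H4C12 had -1.65 ± 0.70 (adjusted p = 0.532, edgeR), with OGAP above input in WT and below it in KD, again without overlap. From WT to KD its input changed by 1.27 ± 0.46 and its OGAP by -0.38 ± 0.53, with overlapping OGAP libraries. The larger part of its interaction thus lay in the input. H3C13 had 1.98 (adjusted p = 0.614, edgeR), H4C1 1.52 ± 0.89, H4C3 -1.08 ± 0.57, H2AC8 -1.50 ± 1.40 and H2BC1 -1.08 ± 1.25. All 6 H1 values were positive, from 0.15 ± 0.63 in H1-1 to 0.92 ± 0.68 in H1-4, with a median of 0.61. The median was 0.08 over the members and 0.02 over all tested windows. It was -0.96 over the 5 members let through by OGAP alone, all of them negative, and 0.13 over the 36 others.

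The genes that regulate, process and replace these histones were looked at as 3 lists. Replication-independent histones, which are made outside S phase or in special tissues, had 19 windows, 16 of them tested; in WT 2 were called higher and 2 lower, with a median of -0.49, where 13.7% of all tested windows were called. H3-5 rose in OGAP by 1.36 ± 0.37 (adjusted p = 0.00632, edgeR). H3-4, a testis H3 on chromosome 1 whose symbol is outside the series chosen here, rose by 0.93 ± 0.30 (adjusted p = 0.0259, edgeR). Its window (chr1:228424326-228426326) lies near those of the HIST3 block, so by position this list is not apart from the histone clusters. The H3-5 call was lost without the second WT OGAP library (0.90, adjusted p = 0.244) or the second WT input library (adjusted p = 0.0715). The H3-4 call was lost with DESeq2 (adjusted p = 0.130) and without the first WT OGAP (adjusted p = 0.161), the second WT OGAP (0.0553) or the first WT input library (0.330, with a value of 0.56). H1-7, a testis H1, held 9 and 9 reads in OGAP against 40 and 52 in input for WT (-1.30 ± 0.43, adjusted p = 0.031, edgeR). That call was lost with DESeq2 (adjusted p = 0.132) and without either WT OGAP library or the second WT input library (adjusted p = 0.0994 to 0.199). In KD the H3-4 value was 0.996 ± 0.318 and was not called (adjusted p = 0.115, edgeR). H1-7 had the lowest p of the lists for KD against WT in OGAP, 1.43 ± 0.44 (adjusted p = 0.23, edgeR).

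The list of histone gene regulation and pre-mRNA processing had 35 windows, 24 tested, and 1 was called lower in WT, against the 13.7% of all, with a median of -0.37. SLBP, which encodes the protein that binds the histone messenger's stem-loop, held 9 and 15 reads in OGAP against 59 and 94 in input for WT, and 54 and 14 in OGAP against 51 and 50 in input for KD. OGAP lay below input in WT without overlap (-1.62 ± 0.39, adjusted p = 0.00232, edgeR), and the KD OGAP libraries fell on either side of their inputs. Its interaction was 1.45 ± 0.53 (adjusted p = 0.468, edgeR), and it was not called in WT without the second WT input library (-1.29, adjusted p = 0.0952). CDK9, the elongation kinase, was called lower in KD (-1.59 ± 0.42, adjusted p = 0.0394, edgeR), with 26 and 1 reads in KD OGAP against 56 and 52 in KD input. Without that second KD OGAP library its value was -0.77 (adjusted p = 0.627), and without either KD input library it was not called either (adjusted p = 0.156 and 0.211). CSTF2, a 3′ end processing factor, had -1.04 ± 0.39 for KD against WT in OGAP (adjusted p = 0.337, edgeR).

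Of the chaperones and assembly factors, 20 of 23 windows were tested and 1 was called lower in WT, again against 13.7% of all, with a median of -0.18. ASF1A, a chaperone of H3-H4, held 7 and 10 reads in OGAP against 42 and 59 in input for WT (-1.52 ± 0.44, adjusted p = 0.0132, edgeR). It was not called with DESeq2 (adjusted p = 0.0816) or without either WT OGAP library or the second WT input library (adjusted p = 0.05 to 0.149). In KD it held 26 and 19 against 45 and 28, and its interaction was 1.26 ± 0.60 (adjusted p = 0.594, edgeR). CHAF1B, a CAF-1 subunit, and HJURP, the CENP-A chaperone, had the lowest p of the lists for KD against WT in input, at 0.72 ± 0.35 and -0.69 ± 0.34, and neither was called (adjusted p = 0.999 each, edgeR).

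Within the chromosome 6 span that holds 50 of the histone windows, 25 windows of other genes served as local neighbours, and 22 were tested. In WT 1 of these was called higher and 2 lower (13.6%, against 13.7% of all tested windows). Their median log2 change was 0.18, against 0.27 in the first and 0.50 in the second histone block of chromosome 6. Without the windows let through by OGAP, the first block stood at 0.005 (25 windows) and the second at 0.38 (8 windows). Such windows were not taken out of the neighbours, so these values and the neighbours' median are not of like sets. In KD the neighbours' median was 0.21. The interaction median was -0.03 in the neighbours, 0.12 in the first block and -0.16 in the second.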

How the data were processed

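The values are raw read counts for each promoter window, as deposited by the authors in 1 table of all 8 libraries. Per the submitters' processing notes, BWA 0.7.17-r1188, bedtools, featureCounts and MACS2 were used with build hg38; how they were set is not given in the sources used here. Windows carried Ensembl identifiers and took a name by position from RefSeq GRCh38.p14: a window whose midpoint was at most 500 bp from a single protein-coding 5′ end of its own strand got that symbol, and the closest window kept a symbol given more than once. This named 15924 windows (79.8%), against 1.11% after a shift of all windows by 200 kb.

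These counts went into edgeR 4.0.16 (R 4.3.3; TMM, filterByExpr, 4 group means over 8 libraries), with quasi-likelihood tests; DESeq2 1.42.0 was an alternative. The common biological coefficient of variation was 0.178, with 98.4 prior and 4 residual degrees of freedom, so a window's p says little about its own libraries. SE is the log2 change over the square root of F, and is approximate. The test was tried on simulated counts with 200 of 17130 windows changed. Replicates of each group differed by more than sampling noise (chi-square per degree of freedom 1.90 to 2.14).

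The members and lists were chosen with earlier results of these data known. Named genes were those called, the highest and lowest of each family in each comparison, the most read of each family, tested members free of overlap, and from the lists those called and the 2 lowest p per comparison. The deposited coverage profiles over genes were not used. A called gene of the lists is not reported here by name.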

Additional observations from a re-analysis of the deposited data

How the results depend on the processing

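In WT, 3 histone windows were called (7.32% of those tested, against 13.7% of all tested windows). The share over all windows is not given for the other settings. Their counts therefore do not show whether histone calls or calls in general changed. DESeq2 called 1, members free of overlap held 0, the 36 members other than those that met the count minimum in OGAP alone (chosen after seeing the data) held 1, and leaving out 1 library gave 1 to 3; 1 was called without any 1 of the 4 WT libraries and 3 without any of the KD libraries. Upper quartile scaling and total reads alone called 4 each, with H3C10 added. With no count filter 4 of 56 were called; the added one, H2BC21, had 0 and 0 reads in OGAP against 8 and 10 in input for WT (edgeR, adjusted p = 0.046) and is untested with the filter. With overlapping windows summed 2 of 34 units were called, H2AC25 with H2BC26 and the unit of H2AC17 and H2BC17 (2.35, adjusted p = 0.0453). The first of these units met the count minimum in OGAP alone. The second holds 3 windows: H2AC17 without a read, H2BC17, which met the minimum in no input library, and a window that is not a member. Neither call is taken as evidence that histone promoters are high in OGAP. In the other comparisons no setting called a member. The median log2 change of the members ranged from 0.013 to 0.52 in WT when 1 library was left out (lowest without the second WT OGAP library), from 0.068 to 0.31 in KD, from -0.20 to 0.33 for KD against WT in OGAP (highest without the second WT OGAP library), from -0.083 to 0.14 for KD against WT in input (highest without the first WT input library) and from -0.30 to 0.25 for the interaction (lowest without the first WT input library). In KD it was -0.12 over members free of overlap. H2AC12 was called in WT without the first WT OGAP library (2.67, adjusted p = 0.047). With the replicate number as a block, 3 windows were called in WT and the median was 0.31. Deviations of same-numbered libraries from their group means correlated at -0.04 to 0.024 between groups. With so few reads per window, sampling noise could hide a pairing, so these values cannot exclude one. The block changed no member's call. Of the single member values under all settings, 2815 kept their direction and side of the threshold, 180 uncalled ones changed sign, 11 lost a call and 3 gained one. Depth limits single windows: with a median of 10 and 14 reads per tested histone window in WT OGAP, 2-fold differences were mostly out of reach, and of the 22 untested windows 15 have a value when no filter is set.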
